A study of Gallus gallus with 2 samples.

Results

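Genes of planar cell polarity and neural tube closure, 10 in all, were followed across the cell classes of the chicken (Gallus gallus) posterior end: CELSR1, FZD3, FZD7, VANGL1, VANGL2, PRICKLE1, PRICKLE2, PTK7, ROR2 and GRHL3. All 10 had a column among the 28190 gene columns of the deposited table. They were taken as a named list, chosen with earlier results of these data known. The embryos carried no introduced mutation (WT per the labels) and were collected at 72 h of incubation and 35 somites. They had been given homocysteine at a high dose (20 uL of 19 mM), homocysteine at a low dose (20 uL of 0.5 mM) or served as controls. Homocysteine, an amino acid of methionine metabolism, was thus the agent under study. Cells of each tissue received a lipid-anchored DNA barcode, were pooled and were captured together on BD Rhapsody, which traps single cells with barcoded beads in microwells. No label ties a lipid barcode to a dose, so the table is 1 pooled sample: treated and control embryos were not compared, there are no replicates, and no test was made. Every interval below is an exact 95% interval for counting error only, Poisson for levels and binomial for shares of cells.

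Planar cell polarity aligns cells within the plane of a tissue. CELSR1 is a cadherin that bridges neighbouring cells, with Frizzled receptors (FZD3, FZD7) gathering at one face of a cell and VANGL proteins with their cytoplasmic partners, the PRICKLE proteins, at the opposite face. ROR2 is a receptor for WNT5A and PTK7 is a pseudokinase receptor, and both feed into the same system. In mice, loss of Vangl2, Celsr1 or Ptk7 leaves the neural tube open, and so does joint loss of Fzd3 and Fzd6. GRHL3 is a transcription factor of surface epithelia, and its loss in mice causes spina bifida.

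Of 60000 cell barcodes in the table, 15494 held at least 4000 gene molecules and 12336 of these had at most 20% mitochondrial molecules. These 12336 cells were used, with a median of 29896 molecules per cell and class medians of 22043 to 56724. Clustering without the 10 genes or any gene of the pathway lists gave 34 clusters, of which 30 could be named from marker genes into 16 classes of 60 to 2218 cells, and 4 clusters (697 cells) stayed unnamed. Several class names are weak. The somite-like class is a single cluster in which the doublet caller Scrublet marked 82.7% of cells. The ectodermal ridge-like class had 73.2 molecules per 1000000 (CPM) of FGF8, a defining ridge factor, against 73.9 CPM in the other classes, and was named from EN1, SP8, DLX5, DLX6, TP63 and CDH1. In the largest neuromesodermal progenitor-like cluster SOX2 was not among the markers over 2-fold, and the smallest was led by HINTW and other W-linked genes. HINTW was also among the leading genes of a splanchnic lateral plate mesoderm-like cluster of 194 cells. The part of sex in the levels of the classes was not tested. The smaller notochord-like cluster (106 of 234 cells) rested on FOXA2, FOXJ1 and LMX1A, without NOTO, SHH, CHRD or TBXT over 2-fold. In the larger intermediate mesoderm-like cluster (396 cells) the markers averaged only 0.13 on the log2 fold scale. Scrublet marked 2287 of the 12336 cells, and these were kept. Without them, the blood classes in particular were lower, and such values are given beside the results that turn on them. Barcodes with under 500 genes, which can hold free RNA, held all 10 genes, at 2.92 CPM (VANGL1) to 257 CPM (ROR2). Their level was above that of all 16 classes for CELSR1 and ROR2, 15 for VANGL1 and PRICKLE2, and 14 for PRICKLE1 and GRHL3. For FZD3 it was above 11 classes, for VANGL2 and FZD7 above 7, and for PTK7 above 3. The part of free RNA in the levels below was not tested.

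Of the 10 genes, 8 were at least 2-fold higher in their highest class than in their median class. The same was true of 7059 of 16489 genes with at least 200 molecules (42.8%). The median ratio was 2.61 over the 10 genes and 1.77 over all these genes. The 2 genes below 2-fold were PTK7 (1.47) and PRICKLE2 (1.95). The classes that led differed from gene to gene. Notochord-like cells led for 4 genes (CELSR1, VANGL1, PRICKLE1 and PTK7), as they did for 9.35% of all genes. Sclerotome-like cells led for 2 (PRICKLE2 and FZD7), and for 4.52% of all genes. Neural tube-like, surface ectoderm-like, ectodermal ridge-like and limb bud mesenchyme-like cells led for 1 each. Erythroid-like cells were lowest for 8 of the 10. The exceptions were VANGL1, with 0 molecules in macrophage-like cells, and ROR2, lowest in hindgut endoderm-like cells. The share of all genes lowest in erythroid-like cells was not counted, so the count of 8 cannot be read as a trait of these genes. The globin gene HBBA alone had 80141 CPM in erythroid-like cells, and its part in the low CPM of other genes was not tested. This low end rests in part on marked cells. Without them erythroid-like cells were lowest for ROR2 as well. Macrophage-like cells were then lowest for CELSR1 (1.05 CPM) and FZD7 (3.15 CPM), against 1.97 CPM and 7.87 CPM in erythroid-like cells. These macrophage-like values rest on very few molecules in 38 unmarked cells and have no interval, so their order is not firm. The highest class of each of the 10 genes was the same without marked cells when the classes were kept. Levels are compared within a gene only, since 3′-end counts with intronic reads differ between genes in how many molecules each transcript yields.

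**Figure D1:**
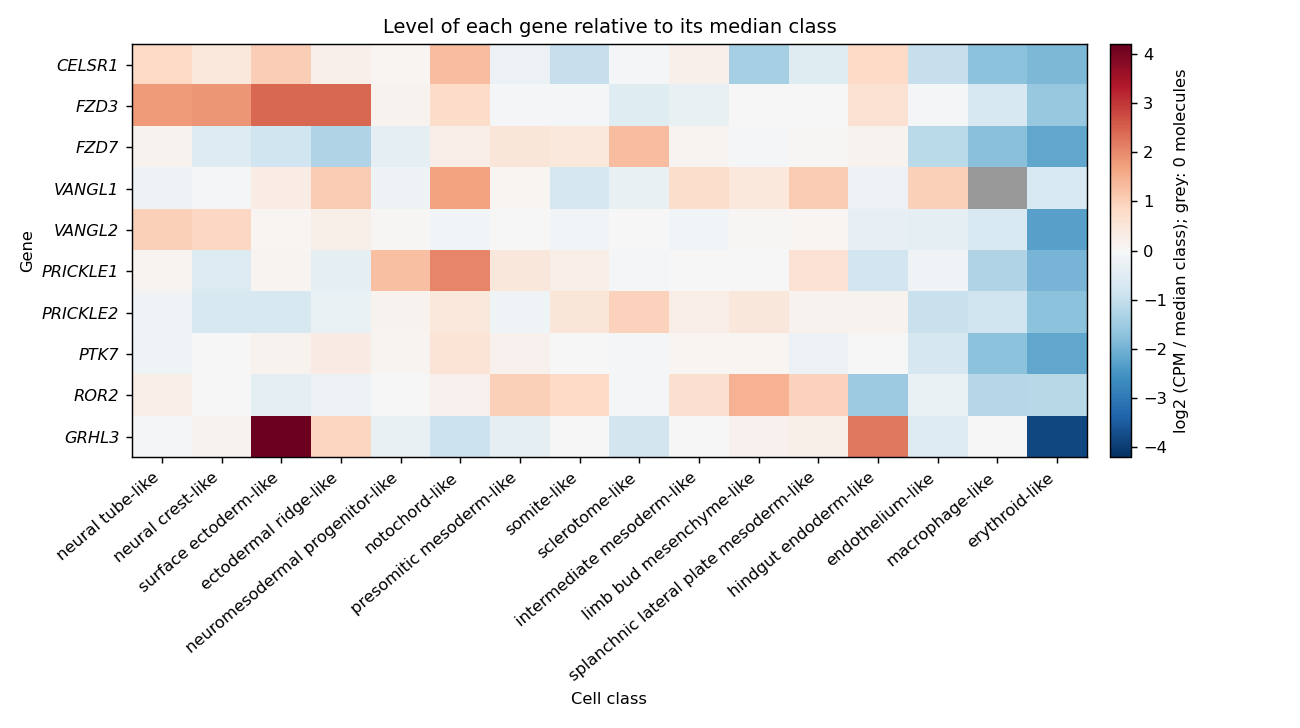
Level of each of the 10 genes (rows) in each of the 16 classes (columns), as log2 of its CPM over the CPM of that gene's median class. GRHL3 is 17.3-fold over its median class in surface ectoderm-like cells, FZD3 is high in both ectodermal and both neural classes, and the grey square marks 0 molecules of VANGL1 in macrophage-like cells.

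CELSR1, the cadherin of the system (GRCg7b chromosome 1, 15924227 to 16084454, RefSeq), was highest in the notochord, surface ectoderm, neural tube and hindgut classes. It stood at 18.9 CPM in notochord-like cells (95% interval 15.9 to 22.2), 15.7 CPM in surface ectoderm-like cells, 13.8 CPM in neural tube-like cells and 13.6 CPM in hindgut endoderm-like cells. Its median class had 7.66 CPM. Limb bud mesenchyme-like cells had 2.90 CPM (2.38 to 3.50), and erythroid-like cells 2.08 CPM. The intervals of notochord-like and surface ectoderm-like cells overlap, so these neighbours in the order do not differ beyond counting error. In 6 of 15 other settings of the analysis surface ectoderm-like or neural tube-like cells led for CELSR1. Barcodes with few genes held 28.9 CPM of CELSR1, above all 16 classes, and the part of this in the levels was not tested. After removal of the cells that Scrublet marked, the levels were 21.7 CPM in notochord-like, 18.4 CPM in neural tube-like and 2.71 CPM in somite-like cells.

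FZD3 and FZD7, the Frizzled receptors, were highest in different classes. FZD3 (chromosome 3, 105634168 to 105686155) was highest in ectoderm, at 40.1 CPM in ectodermal ridge-like cells (37.2 to 43.3), 39.9 CPM in surface ectoderm-like cells (37.4 to 42.5), 27.05 CPM in neural crest-like cells and 25.9 CPM in neural tube-like cells. The 2 ectodermal classes did not differ beyond counting error, nor did the 2 neural classes. The next class, notochord-like cells, had 12.7 CPM, the median class 7.46 CPM and sclerotome-like cells 5.19 CPM. In 6 of 15 other settings surface ectoderm-like or neural tube-like cells led for FZD3 instead. In new clusterings, neural tube-like cells led without the highest 10% of Scrublet scores, marked cells, or cells of 2 or 3 lipid barcodes. Neural tube-like cells also led with a per-cell marker gate. With each cell thinned to 4000 molecules, FZD3 was found in 15.1% of ectodermal ridge-like cells and 14.8% of surface ectoderm-like cells, against 1.92% of sclerotome-like cells and 1.06% of erythroid-like cells, which should lack it. Without thinning these shares were 56.9%, 59.6%, 14.6% and 4.76%. FZD7 (chromosome 7, 11299860 to 11303860) was instead highest in paraxial mesoderm. It reached 281 CPM in sclerotome-like cells (273 to 289), 163 CPM in presomitic mesoderm-like cells and 157 CPM in somite-like cells, against a median class at 115 CPM. Ectodermal ridge-like cells had 47.7 CPM and surface ectoderm-like cells 64.1 CPM of FZD7. In sclerotome-like cells 65.8% of thinned cells held FZD7, against 3.17% of erythroid-like cells. In 7 of 15 other settings the ratio of FZD7 to its median class was under 2, down to 1.56 with another clustering seed, and none of these 7 formed a sclerotome-like class. Without marked cells FZD3 had 34.8 CPM in neural tube-like and 0.56 CPM in erythroid-like cells, and FZD7 7.87 CPM in erythroid-like cells.

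VANGL1 and VANGL2, the membrane proteins that recruit PRICKLE proteins, were unequal in depth and in pattern. VANGL1 (chromosome 1, 80545225 to 80584062) had 568 molecules in all cells used, too few for a firm order. Its highest class, notochord-like cells, rested on 24 molecules (3.15 CPM, 2.02 to 4.68), and the intervals of 5 other classes overlapped it. Ectodermal ridge-like and splanchnic lateral plate mesoderm-like cells both had 2.04 CPM, and neural tube-like cells had 0.83 CPM (0.63 to 1.08). For the 0 molecules in macrophage-like cells the exact interval reaches 2.14 CPM. The limit of 3 molecules set for a count of 0 is 1.74 CPM there. VANGL2 (chromosome 25, 1216371 to 1229131) had 8304 molecules and was highest in the neural classes. It stood at 32.6 CPM in neural tube-like cells (31.3 to 33.9) and 29.5 CPM in neural crest-like cells (25.8 to 33.6), whose intervals overlap, and at 19.3 CPM or less in every other class. Neural tube-like cells made up 13.9% of cells and held 27.4% of VANGL2 molecules. Outside the neural and blood classes VANGL2 lay between 19.3 CPM in ectodermal ridge-like cells and 12.3 CPM in the endothelium-like class. Macrophage-like cells had 10.5 CPM and erythroid-like cells 3.32 CPM. In neural tube-like cells 12.3% of thinned cells held VANGL2, against 0.53% of erythroid-like cells. Without the cells marked by Scrublet, neural tube-like cells had 41.3 CPM, macrophage-like cells 2.10 CPM and erythroid-like cells 0.84 CPM.

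The PRICKLE genes encode the cytoplasmic partners of VANGL proteins. PRICKLE1 (chromosome 1, 29792340 to 29852439) was highest in the notochord and tail bud classes, at 199.9 CPM in notochord-like cells (190.0 to 210.2), 116 CPM in neuromesodermal progenitor-like cells (112 to 120) and 73.6 CPM in splanchnic lateral plate mesoderm-like cells (71.7 to 75.5). No other class had an interval that reached that of notochord-like cells, and the median class had 47.8 CPM. After thinning, 56.0% of notochord-like cells held PRICKLE1, against 35.4% of neuromesodermal progenitor-like cells and 2.12% of erythroid-like cells. Erythroid-like cells had 12.5 CPM of PRICKLE1, and 1.97 CPM without marked cells. The 2 notochord-like clusters stood at 207 CPM and 189 CPM, and the 3 neuromesodermal progenitor-like clusters at 137 CPM, 104 CPM and 96.1 CPM. The order of these 5 clusters was thus the order of their classes. Hindgut endoderm-like cells had 27.3 CPM. PRICKLE2 (chromosome 12, 13817353 to 13907276) was flatter, at 20.2 CPM in sclerotome-like cells (18.1 to 22.5), 14.8 CPM in somite-like cells and 14.3 CPM in limb bud mesenchyme-like cells, with a median class at 10.4 CPM. Surface ectoderm-like cells had 6.43 CPM and endothelium-like cells 5.39 CPM of PRICKLE2.

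**Figure D2:**
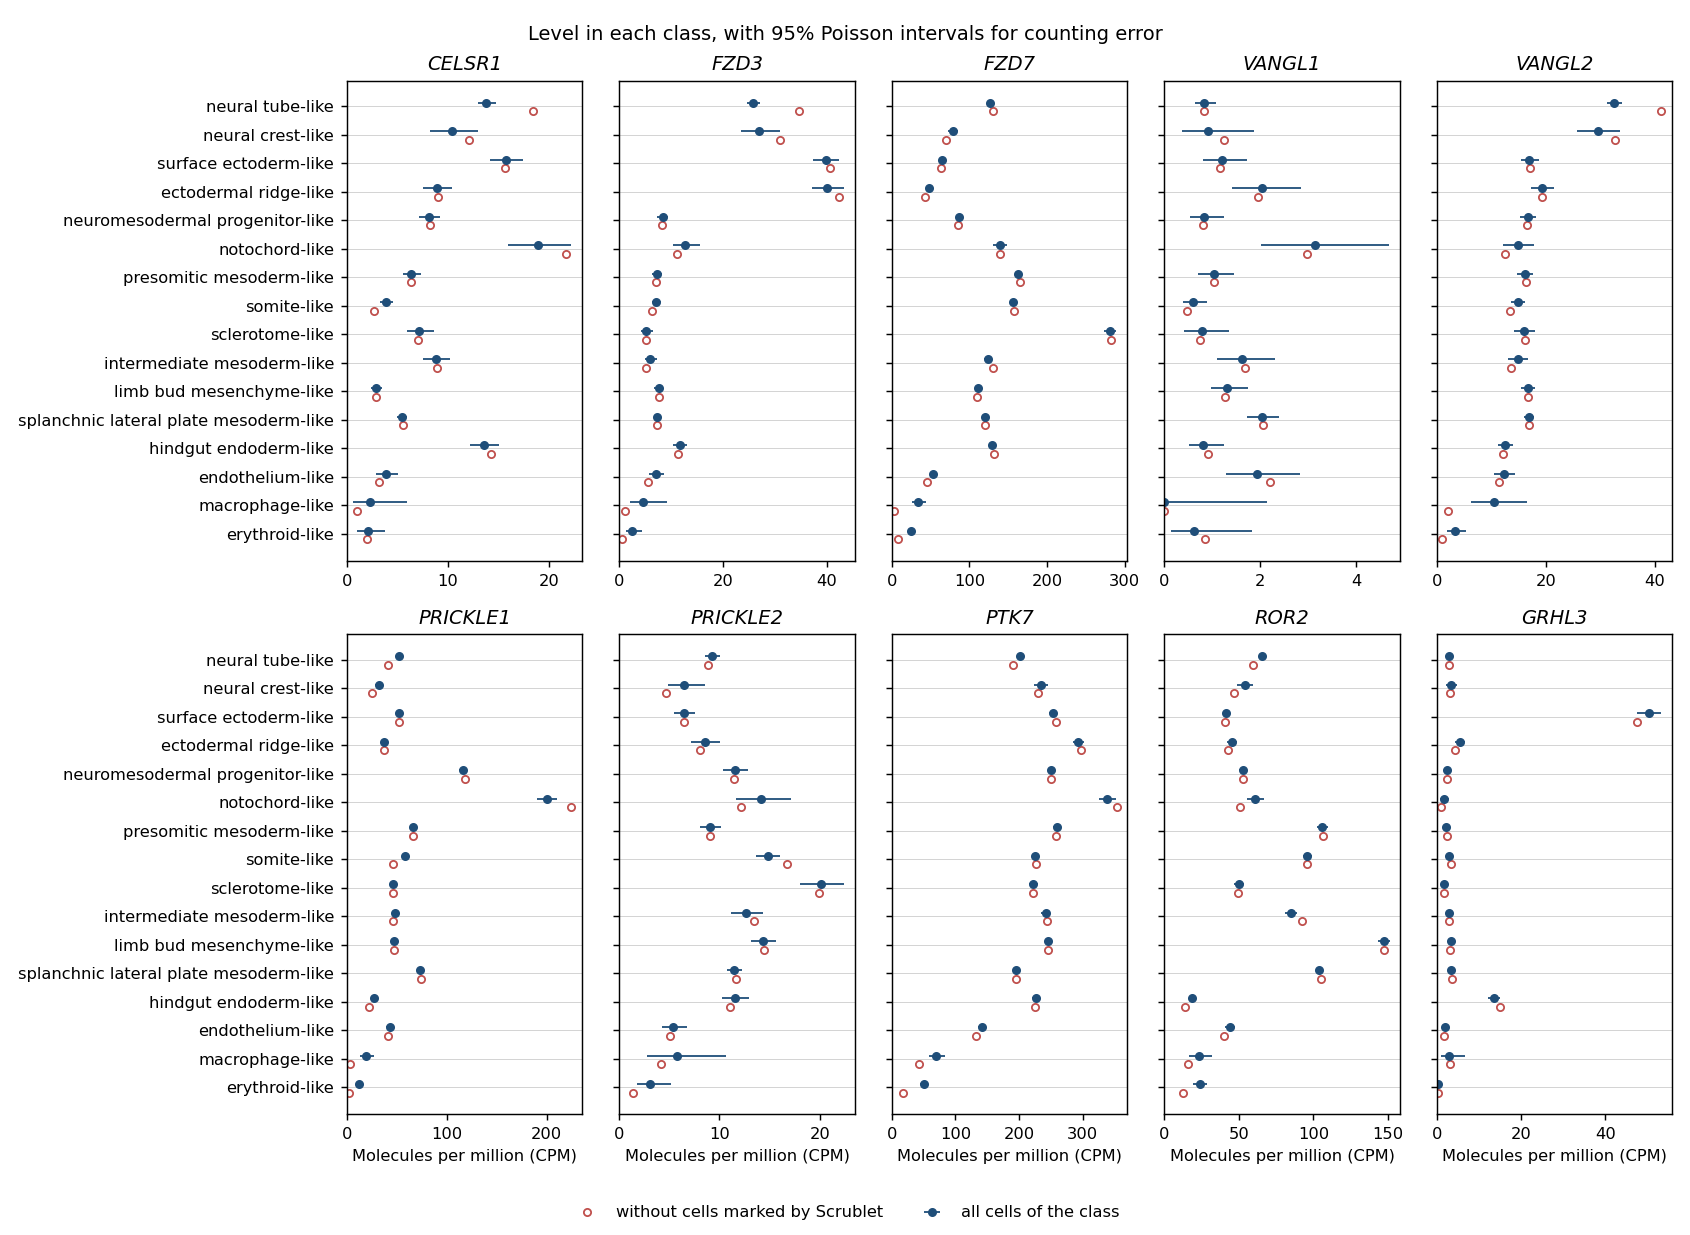
CPM of each gene (panels, linear axes from 0) in the 16 classes (rows); filled points are all cells of a class with 95% Poisson intervals, open points the same class without cells marked by Scrublet. PRICKLE1 in notochord-like cells (199.9 CPM with all cells, 224 CPM without marked cells) and GRHL3 in surface ectoderm-like cells (50.4 and 47.4 CPM) stand clear of the other classes in both.

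PTK7, the pseudokinase receptor (chromosome 3, 4571533 to 4596943), had the smallest ratio of highest to median class among the 10 genes. It had 339 CPM in notochord-like cells (326 to 352), 293 CPM in ectodermal ridge-like cells and 230.0 CPM in the median class. From presomitic mesoderm-like cells down to splanchnic lateral plate mesoderm-like cells, 11 classes lay between 259.7 CPM and 196 CPM. The low end was blood and vessel: 141 CPM in endothelium-like, 69.7 CPM in macrophage-like and 50.4 CPM in erythroid-like cells, where those not marked by Scrublet had 17.4 CPM. In 5 of 15 other settings ectodermal ridge-like or surface ectoderm-like cells led for PTK7. ROR2, the WNT5A receptor (chromosome Z, 45080996 to 45235064), was highest in mesoderm. ROR2 stood at 147 CPM in limb bud mesenchyme-like cells (143 to 151), 106 CPM in presomitic mesoderm-like cells and 104 CPM in splanchnic lateral plate mesoderm-like cells. The intervals of presomitic and splanchnic mesoderm-like cells overlap. Hindgut endoderm-like cells had 18.6 CPM (17.0 to 20.3), and erythroid-like cells 23.7 CPM. Without marked cells this order turned, at 13.7 CPM in hindgut endoderm-like cells and 12.4 CPM in erythroid-like cells. With all cells, surface ectoderm-like cells had 41.6 CPM. After thinning, ROR2 was found in 44.1% of limb bud mesenchyme-like cells, against 6.68% of hindgut endoderm-like cells and 5.29% of erythroid-like cells. Both limb bud mesenchyme-like clusters were high, at 157 CPM and 137 CPM. Barcodes with few genes held 257 CPM of ROR2, above all 16 classes, and the part of this in the lower levels was not tested.

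GRHL3 (chromosome 23, 5989344 to 6108445) was the most restricted gene of the list. Surface ectoderm-like cells had 50.4 CPM (47.6 to 53.3), hindgut endoderm-like cells 13.5 CPM (12.1 to 15.0) and ectodermal ridge-like cells 5.46 CPM, against 2.91 CPM in the median class. Among the 16489 genes the 17.3-fold ratio lay at percentile 94.4. Within the surface ectoderm-like class, 1145 of its 1214 molecules came from 1 cluster. The cluster of 150 cells led by OVAL, SCEL and ZNF750 had 184 CPM (173 to 195). The other, of 607 cells, had 3.86 CPM (3.005 to 4.89), a ratio of 47.5. The small cluster was named from TFAP2A, KRT18, KRT7, EPCAM, CDH1, WNT6 and DLX5. TP63 was not among its markers over 2-fold, but was among those of the large cluster. Between these clusters 35 of 9067 genes were at least 10-fold higher in the small one (0.386%), and GRHL3 was the only one of the 10 genes to be so. The small cluster held 1.22% of all cells and 41.9% of all GRHL3 molecules. After thinning, 44.7% of its cells held GRHL3, against 1.15% of the larger cluster, and erythroid-like cells held 1 molecule of it in all. Scrublet marked 22.7% of the small cluster, and without these cells the level was 209 CPM.

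The polarity genes were closer between the 2 surface ectoderm-like clusters. FZD3 had 40.9 CPM in the small cluster and 39.5 CPM in the large one, and VANGL2 17.2 CPM and 16.9 CPM. CELSR1 had 19.7 CPM and 14.3 CPM. PTK7 and PRICKLE1 were lower in the small cluster, at 176 CPM and 34.3 CPM, against 280.1 CPM and 58.0 CPM in the large one. GRHL1, a relative of GRHL3, had 142 CPM in the small cluster and 17.0 CPM in the large one, and GRHL2, the other relative, had 9.46 CPM and 15.7 CPM.

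The neural tube-like class was also uneven, in VANGL2, FZD3 and PRICKLE1. The 552-cell cluster led by OLIG2, SOX1 and PAX6, genes of neural progenitors, had 53.1 CPM of VANGL2 (49.9 to 56.5), 48.2 CPM of FZD3 (45.1 to 51.4) and 14.4 CPM of PRICKLE1 (12.7 to 16.2). The 491-cell cluster led by PLA2G10L, PMP22 and STAC had 28.7 CPM, 21.8 CPM and 70.7 CPM of these genes. A cluster of 545 cells, 96.0% of them marked by Scrublet, stood near the PLA2G10L-led cluster, at 22.6 CPM, 15.2 CPM and 64.6 CPM. The last cluster, of 128 shallow cells with a median of 5999 molecules, had 25.8 CPM, 7.86 CPM and 47.1 CPM. VANGL2 and FZD3 were thus highest, and PRICKLE1 lowest, in the OLIG2-led cluster. Among the other clusters the order was not inverse: the shallow one had less FZD3 and less PRICKLE1 than the PLA2G10L-led one. FZD7 went with VANGL2 and FZD3, at 147 CPM in the OLIG2-led cluster and 118 CPM in the PLA2G10L-led cluster. ROR2 went with PRICKLE1 between the same clusters, at 48.2 CPM and 70.1 CPM. CELSR1 had 20.0 CPM and 17.2 CPM in these clusters, and 8.54 CPM in the mostly marked one.

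**Figure D3:**
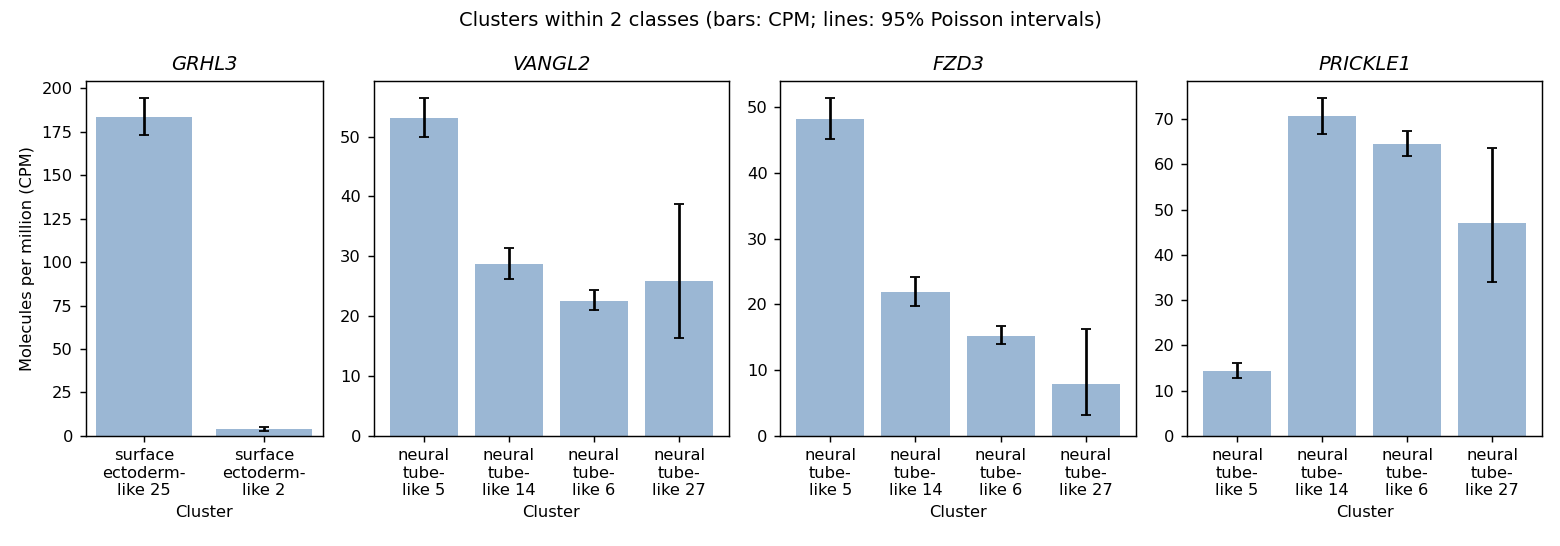
CPM (bars, axes from 0, with 95% Poisson intervals) of GRHL3 in the small and large surface ectoderm-like clusters and of VANGL2, FZD3 and PRICKLE1 in the 4 neural tube-like clusters, each named by class and cluster number. GRHL3 has 184 CPM in cluster 25 and 3.86 CPM in cluster 2; in cluster 5 VANGL2 and FZD3 are at 53.1 and 48.2 CPM while PRICKLE1 is at 14.4 CPM.

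A split by dorsal markers (PAX3, PAX7, MSX1, MSX2, OLIG3) and ventral markers (NKX6-1, NKX6-2, OLIG2, NKX2-2, FOXA2, SHH) gave 1032 dorsal and 37 ventral neural tube-like cells with markers of one side only. PRICKLE1 had 54.3 CPM in dorsal cells (52.0 to 56.7) and 13.7 CPM in ventral cells (6.56 to 25.2), a ratio of 3.97. VANGL2 had 31.0 CPM in dorsal cells and 54.7 CPM in ventral cells, FZD3 24.1 CPM and 64.3 CPM, and FZD7 121 CPM and 211 CPM. For these 4 genes the intervals of dorsal and ventral cells do not overlap, nor for PTK7, at 209 CPM and 157 CPM. The share of all genes whose intervals do not overlap was not counted. PRICKLE1, VANGL2, FZD3 and FZD7 were the 4 of 8 genes with at least 200 molecules that lay 1.5-fold or more apart. Among all genes 2257 of 9917 did so (22.8%): 15.9% higher in dorsal and 6.88% higher in ventral cells. Without marked cells, with the clusters kept, VANGL2 had 38.1 CPM in 717 dorsal cells (35.6 to 40.8) and 55.4 CPM in 33 ventral cells (39.2 to 76.1), which overlap. In that setting 3 of 7 genes were 1.5-fold apart, and the share of all genes was not counted. With all cells, CELSR1 and ROR2 had overlapping intervals, at 14.3 CPM and 66.2 CPM in dorsal cells and 15.0 CPM and 53.3 CPM in ventral cells.

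The split went with the clusters: 24 of the 37 ventral cells lay in the OLIG2-led cluster, against 279 of the 1032 dorsal cells. The PLA2G10L-led cluster held 366 dorsal cells and 1 ventral cell. The cluster with 96.0% of cells marked by Scrublet held 305 dorsal and 2 ventral cells. The part of this make-up in the ratios over all clusters was not tested. Within the OLIG2-led cluster 1 of 6 genes was 1.5-fold apart: FZD7, with 128 CPM in dorsal cells and 226 CPM in ventral cells. The share of all genes was not counted within the cluster. There VANGL2 had 50.3 CPM in dorsal cells and 57.8 CPM in ventral cells, and FZD3 48.1 CPM and 69.4 CPM. PRICKLE1 had too few molecules there to be counted, at 7.32 CPM in dorsal and 4.96 CPM in ventral cells. With the highest 10% of Scrublet scores removed, its order turned on 109 molecules, at 10.98 CPM in 342 dorsal cells and 12.8 CPM in 35 ventral cells. That setting clustered the cells anew. With marked cells removed and the clusters kept, PRICKLE1 had 45.1 CPM in dorsal cells and 13.1 CPM in ventral cells, on 970 molecules. The ventral cells were also shallower, with a median of 20726 molecules, against 31381 in dorsal cells. With the markers read after thinning, 1094 dorsal and 116 ventral cells had 56.5 CPM and 35.7 CPM of PRICKLE1 and 23.1 CPM and 45.5 CPM of FZD3.

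**Figure D4:**
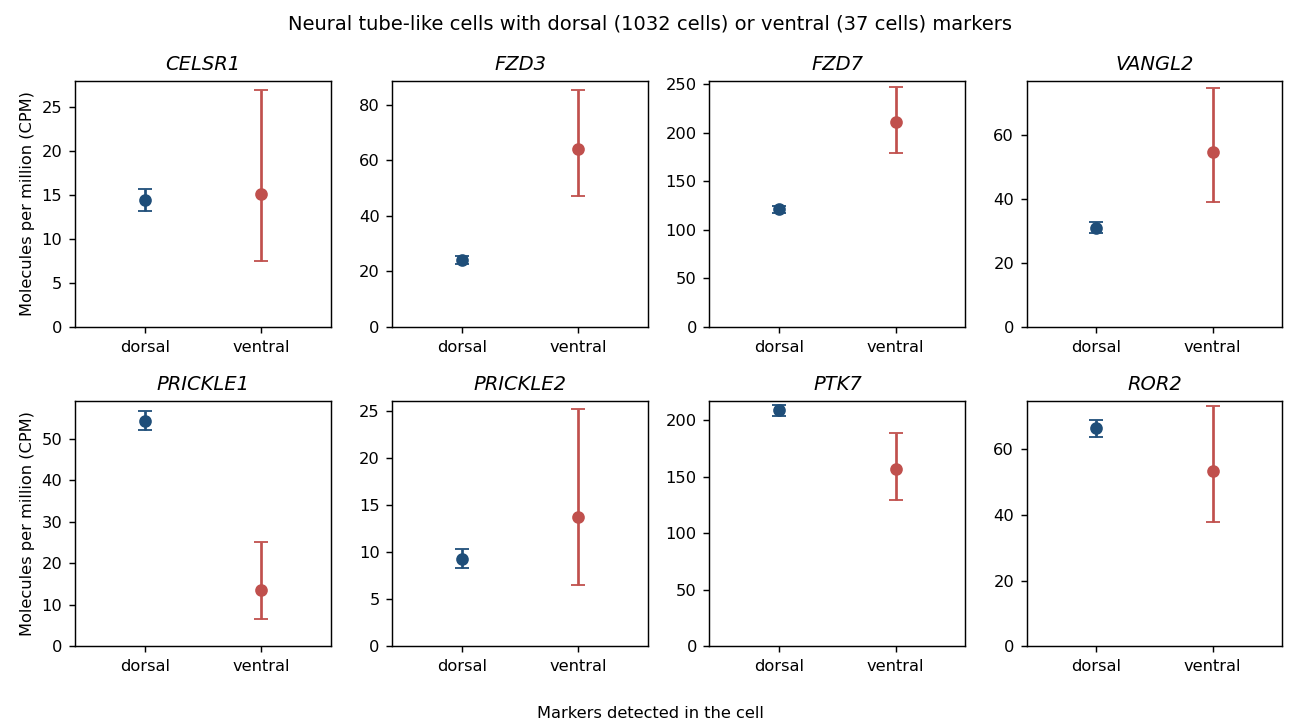
CPM (points, axes from 0, with 95% Poisson intervals) of the 8 genes with at least 200 molecules in neural tube-like cells carrying dorsal or ventral markers only. PRICKLE1 is higher in the 1032 dorsal cells, and FZD3, FZD7 and VANGL2 are higher in the 37 ventral cells.

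The lipid barcodes show how far the levels vary between pools of tissue, without saying which pool was treated. Of the cells used, 1199 carried SBC2, 3582 SBC3 and 1060 SBC7, and the rest had no single clear barcode. In neural tube-like cells none of the 8 genes with at least 200 molecules was 2-fold apart between the highest and lowest pool, where 221 of 9632 genes were (2.29%). The widest were VANGL2, at 28.5 CPM among SBC2 cells, 34.0 CPM among SBC3 cells and 21.1 CPM among SBC7 cells, and CELSR1, at 13.9, 12.1 and 8.55 CPM in the same order. For VANGL2 the intervals of SBC3 (31.5 to 36.7) and SBC7 (18.2 to 24.2) do not overlap. How many of all genes have pools with separate intervals was not counted. The pools also differed in depth. Over all cells used, SBC7 cells had a median of 52309 molecules, against 30916 for SBC2 and 35078 for SBC3. The part of depth, and of the mix of clusters within the class, in the differences between pools was not tested. PTK7 was the closest, at 204, 197 and 207 CPM.

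In the other 3 classes with enough cells, no gene of the list with at least 200 molecules was 2-fold apart either. In limb bud mesenchyme-like cells 7 genes were compared and 2.88% of all genes were 2-fold apart. ROR2, highest in that class, had 140.2 CPM among SBC2 cells, 149.8 CPM among SBC3 cells and 144 CPM among SBC7 cells. In splanchnic lateral plate mesoderm-like cells 8 genes were compared (3.9% of all genes), and CELSR1 was the widest, at 7.85, 4.04 and 4.79 CPM. In surface ectoderm-like cells 7 were compared (1.96% of all genes). GRHL3 was the widest there, at 121 CPM among SBC2 cells, 66.0 CPM among SBC3 cells and 65.0 CPM among SBC7 cells. CELSR1, with 188 molecules there, had 24.3, 12.5 and 11.4 CPM in the same order. The small GRHL3-rich cluster gave 41 of 72 surface ectoderm-like cells of SBC2, 57 of 206 of SBC3 and 13 of 50 of SBC7. Within that cluster GRHL3 had 190.4 CPM among SBC2 cells (171 to 211), 185 CPM among SBC3 cells (169 to 203) and 179 CPM among SBC7 cells (151 to 210.4). These intervals overlap, but they cover counting error in single pools only. The part of the cluster in the difference between the pools was not tested.

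**Figure D5:**
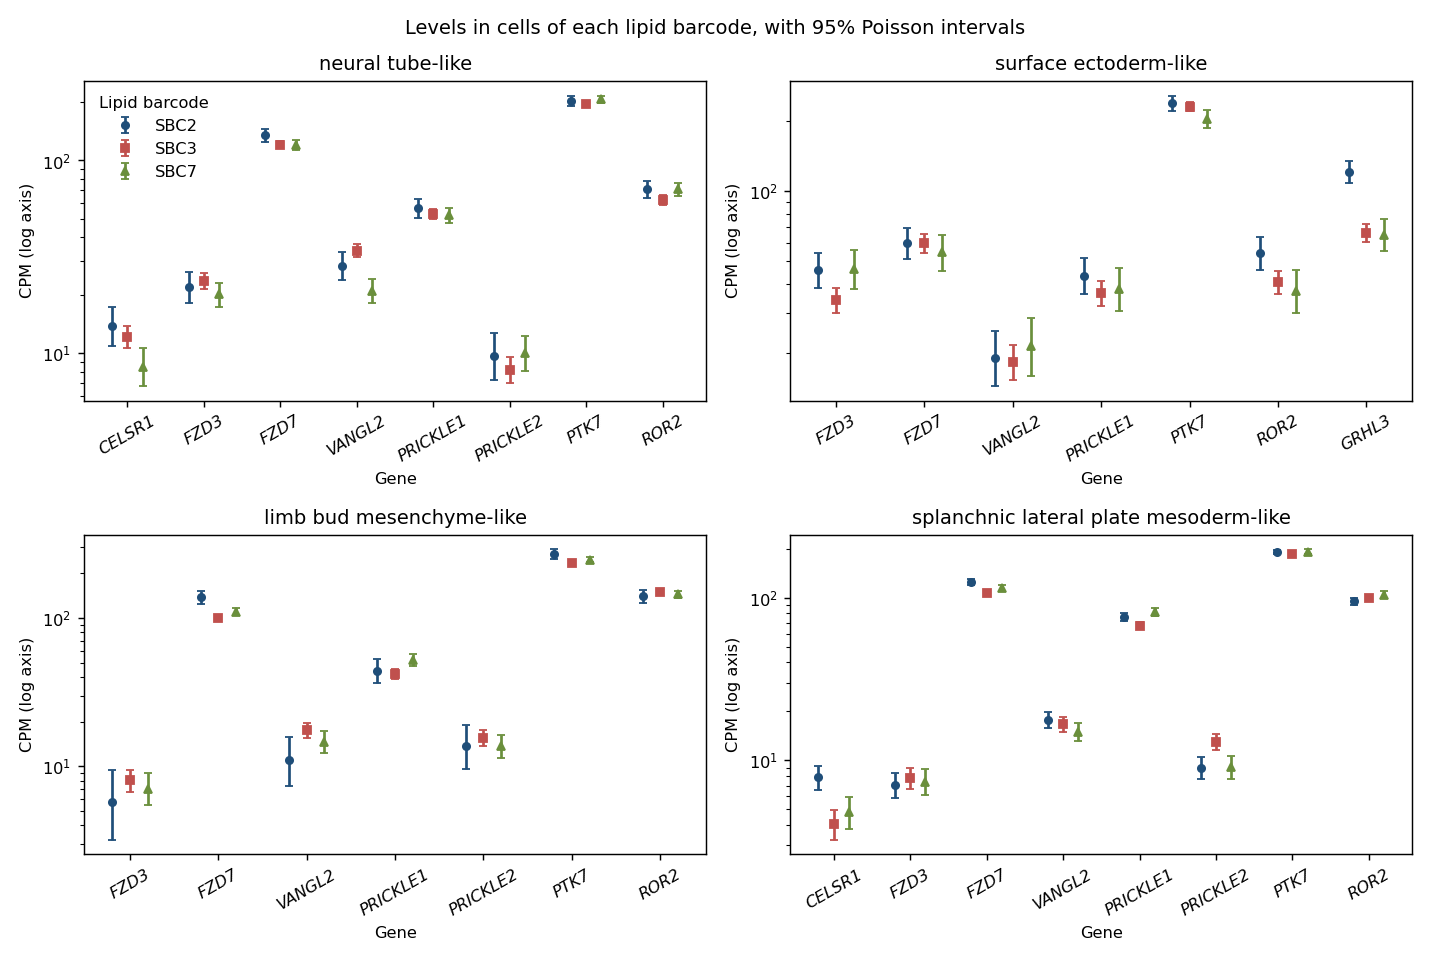
CPM (log axes, with 95% Poisson intervals) of the genes with at least 200 molecules in cells of each lipid barcode, in 4 classes. The pools lie within 2-fold of each other for every gene shown, and GRHL3 in surface ectoderm-like cells is at 121 CPM for SBC2, against 66.0 and 65.0 CPM for SBC3 and SBC7.

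Between the classes the 10 genes did not move as 1 group. Over the 16 classes, on the log2(CPM + 1) scale, Pearson's r between pairs of them ran from -0.15 (ROR2 and GRHL3) to 0.88 (PRICKLE2 and FZD7). VANGL2 and FZD3 had r = 0.69, VANGL2 and PRICKLE1 0.47, VANGL1 and VANGL2 0.22, and FZD3 and FZD7 0.00. These classes share 1 library and the 2 blood classes are low for most genes, so r is a description only. Among 9001 other genes the closest to VANGL2 were AGO1 (0.96), an Argonaute protein of small-RNA silencing, MAP7D1 (0.95), a microtubule-associated protein, and KLHL20 (0.95), a ubiquitin ligase adaptor. Closest to FZD3 were TRIT1, FGFR2 and SHISA9 (0.91, 0.90 and 0.90), with FGFR2, a fibroblast growth factor receptor, at 701 CPM in ectodermal ridge-like cells and 74.4 CPM in its median class. CCDC90B, SUCLG1 and COL14A1 were closest to GRHL3 (0.93, 0.92 and 0.91), TRMT10B, ACVR2A and TBC1D23 to PRICKLE1 (0.88 each), and EDA, CLGN and CFAP44 to CELSR1 (0.89, 0.89 and 0.87). For PTK7 they were DOLPP1, WFS1 and BCL9 (0.96 each), and for ROR2 NPY2R, NBEA and BAALC (0.89, 0.89 and 0.88). CNIH4, NIF3L1 and NAE1 were closest to FZD7 (0.91, 0.90 and 0.89), POT1, SLC35E2B and FZD7 to PRICKLE2 (0.90, 0.89 and 0.88), and ZFYVE1, FBLN2 and VPS16 to VANGL1 (0.86, 0.84 and 0.83).

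The wider pathway was described by 6 lists of 89 genes, of which 76 had a column and 73 had at least 200 molecules. Of these 73, 39 were at least 2-fold over their median class, against 42.8% of all genes. Among other core polarity proteins 5 of 8 were so, where 42.8% of all genes were. ANKRD6, the vertebrate relative of the fly polarity protein Diego, had 26.7 CPM in surface ectoderm-like cells and 6.29 CPM in its median class, and FZD6, the receptor that acts with FZD3 in mice, 57.2 CPM and 21.6 CPM. Both thus peaked in a class where FZD3 was high. CELSR3 reached its highest class, erythroid-like cells, on 12 molecules. LLGL1 and DVL3 were the most even, with ratios of 1.21 and 1.19.

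All 10 WNT ligands, co-receptors and partners with enough molecules were at least 2-fold over the median class, where 42.8% of all genes were. WNT11, a polarity ligand, and RSPO3, a secreted WNT enhancer, peaked in presomitic mesoderm-like cells with 131 CPM and 557 CPM, against 12.5 CPM and 74.98 CPM in their median classes. WNT11 therefore peaked in a class with high FZD7 and ROR2. GPC3, a cell-surface glypican, had 263 CPM in splanchnic lateral plate mesoderm-like cells and 31.6 CPM in its median class. ROR1, the relative of ROR2, had 59.7 CPM in ectodermal ridge-like cells, 58.4 CPM in surface ectoderm-like cells, 43.7 CPM in limb bud mesenchyme-like cells and 27.4 CPM in its median class, and SDC4, a syndecan, 153 CPM in sclerotome-like cells and 63.0 CPM in its median class. Of the effectors 5 of 18 were 2-fold over the median class, where 42.8% of all genes were. DACT2 and NKD1, both regulators of Dishevelled, had 645 CPM in sclerotome-like cells and 269 CPM in presomitic mesoderm-like cells, against 165 CPM and 97.6 CPM in their median classes, and DACT1 had 55.2 CPM in splanchnic lateral plate mesoderm-like cells and 19.2 CPM. MAPK8 and SEC24B, a kinase and the coat protein that exports Vangl2 in mice, had ratios of 1.28 and 1.13.

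Among FAT cadherins 2 of 4 were called, where 42.8% of all genes were. They were FAT2 (11.9 CPM in surface ectoderm-like cells, 0.42 CPM in its median class) and FAT4 (26.3 CPM in sclerotome-like cells, 10.4 CPM). FAT3 and FAT1 had ratios of 1.96 and 1.41. Of the apical constriction and actin genes 5 of 17 were called, where 42.8% of all genes were. VASP, an actin elongation factor, was highest in macrophage-like cells (34.3 CPM, median class 7.54 CPM), CDH2 in notochord-like cells (459 CPM, 134 CPM), as PRICKLE1 was, and MARCKSL1 in neural crest-like cells (1146 CPM, 350.2 CPM). CFL2 and ARHGAP35 had ratios of 1.19 and 1.16. Of the closure regulators 12 of 16 were called, where 42.8% of all genes were. CLDN3, a tight junction protein, had 195 CPM in hindgut endoderm-like cells and 5.29 CPM in its median class, ESRP1, an epithelial splicing factor, 30.4 CPM in surface ectoderm-like cells and 0.91 CPM, and GRHL2 19.1 CPM in ectodermal ridge-like cells and 0.78 CPM. The classes where these 3 peaked were the 3 highest for GRHL3. LRP6, a WNT co-receptor, was the most even, with a ratio of 1.09.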

How the data were processed

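The deposited counts came from the BD Rhapsody pipeline 1.11 (GRCg7b, Ensembl release 107, intronic reads included, cell number set to 60000), per the file headers. Each value is a raw number of molecules of a gene in a cell barcode, and lipid barcode molecules stand in the same rows, so 1 capture was read. R 3.6.2 and Seurat are named in the submitters' processing notes. The library number in the headers differs from that in the labels.

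Cells with at least 4000 gene molecules and at most 20% mitochondrial molecules were scaled to 10000, log-transformed and clustered (scanpy 1.11.5, 2000 variable genes, 30 components, 15 neighbours, Leiden at resolution 1 with leidenalg 0.10.2 and igraph 0.11.9) without the 10 genes and the listed genes. A cluster took the class with the highest mean log2 fold among those with at least 3 markers over 2-fold in 10% of its cells; one led by another class's genes stayed unnamed. Molecules were summed per class and given per 1000000 (CPM). Shares were also taken after thinning to 4000 molecules. A lipid barcode was assigned where it was over 5 times its background median and 3 times the next. The limit for a count of 0 is 3 molecules. Intervals cover counting error only. Scrublet ran within scanpy. The step that finds the highest class was tested on simulated counts.

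All 10 genes are named. Of each list the 3 genes with the largest and the 2 with the smallest ratio of highest to median class are named, except 1 gene that is not reported here, and for likeness the 3 genes with the highest r among those with at least 2000 molecules and no marker. The genes, lists and rules were chosen with earlier results of these data known. GRHL1, the cluster-leading genes and the values of SBC2, SBC3 and SBC7 beyond the neural tube were added after values were seen. Gene positions are those of RefSeq on GRCg7b, where all 10 symbols matched. Python 3.11.15, numpy 2.4.6, scipy 1.17.1, pandas 2.3.3 and matplotlib 3.10.9 were used.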

Additional observations from a re-analysis of the deposited data

Results flagged for a closer look

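Of the 6 lipid barcode columns, 3 were used in no comparison but held molecules: SBC4 had 18889, SBC5 4242 and SBC8 4587, while SBC2, SBC3 and SBC7 had 8915523, 12104007 and 7166491.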

How the results depend on the processing

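No test was made, and no paired analysis was possible because the table is 1 pooled sample. The count of 8 genes at least 2-fold over the median class ran from 5 to 9 over 15 alternatives and was 5 with at most 10% mitochondrial molecules. There PRICKLE1 had a ratio of 1.29 and no notochord-like class was found. The pathway count of 39 ran from 35 to 42. The count of 0 genes 2-fold apart between lipid barcodes in neural tube-like cells was 1 with the mean of per-cell CPM and 0 in the other 5 alternatives; assigning barcodes at 10 times the next left too few cells in a barcode to give a value. The count of 4 genes apart between dorsal and ventral cells was 1 with the highest 10% of Scrublet scores removed, 1 in the OLIG2-led cluster alone and 2 with a per-cell marker gate. In these settings 5, 6 and 5 genes, not 8, had enough molecules, and PRICKLE1 was not among them. The share of all genes was not counted in these settings.

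Of the single genes, ROR2 kept its highest class in all 15 alternatives, and VANGL2, PRICKLE1 and GRHL3 in 14. FZD7 and PRICKLE2 kept sclerotome-like cells as the highest class in all 7 alternatives that held that class. Some of these kept the main clusters, so the class was fixed in advance there and the agreement says little. Among alternatives that grouped the cells anew, the class formed only with at least 10000 molecules, at resolution 2 or with marked cells removed. It did not form with another clustering seed. CELSR1, VANGL1 and FZD3 changed it in 6 of 15 and PTK7 in 5. FZD7 was under 2-fold in 7 of 15, with ratios down to 1.56. The ratio of GRHL3 ran from 8.61 to 71.4. Alternatives that leave out cells marked by Scrublet, clusters of at least 50000 median molecules, or all but the OLIG2-led cluster were added after seeing the data. VANGL1 is limited by its 568 molecules, and the ventral values by their 37 cells.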
